A study of Homo sapiens with 6 samples.

Results

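The metallothionein genes MT1A, MT1E, MT1F, MT1G, MT1H, MT1M, MT1X and MT2A and their activator MTF1 were examined in KY170, a human cell line from squamous cancer of the esophagus, and in KY170R, a derivative that withstands radiation. They were chosen by name, and a probe was taken where the platform annotation gave it that gene as its single symbol. Of the 9 genes, 8 had such a probe, among 18665 genes that had one. MT1A had none and has no value here. The 8 genes were read by 10 of the 48803 probes, 2 of them each for MT1E and MT1H. Cells of both lines (kyse170 and kyse170R in the labels, sensitive and non-sensitive to radiation) were irradiated with a linear accelerator, and RNA from 0, 8 and 24 h was put on Illumina Human-6 V3 bead arrays, 1 array for each line and time point. Each of the 6 groups therefore held 1 array. KY170R is a clone selected by continued fractionated irradiation of KY170, so differences between the lines are those of 1 parental culture and 1 derivative. The sources used here do not give the dose, they differ on whether the 0 h cells had been irradiated, and no array held cells kept for 8 or 24 h without radiation.

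Metallothioneins are small cysteine-rich proteins that bind zinc, copper and cadmium in clusters of thiolates and also react with oxidants. MTF1 is the zinc-sensing factor that binds metal response elements in their promoters, so that a rise in free zinc, whether taken up or released from proteins by oxidants, raises metallothionein RNA. Glucocorticoids raise MT2A RNA as well. In the stratified epithelium of the esophagus metallothioneins are known mainly from the basal, dividing layer.

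The functional human genes of the family lie side by side on chromosome 16 in the RefSeq table of GRCh38.p14, from MT4 at the first end through MT3, MT2A, MT1E, MT1M, MT1A, MT1B, MT1F, MT1G and MT1H to MT1X. MTF1 lies on chromosome 1. RefSeq promoters were used here for MT2A, MT1X, MT1H and MTF1. The 250 bases before the annotated start are printed for the first 3 because they carry the element through which MTF1 acts and because 2 of these genes were the brightest members and the third was near background. Capitals mark matches to the core of the metal response element, TGCACNC or TGCGCNC, on either strand. The sequences run 5′ to 3′ on the strand of the gene, which is the plus strand for all 3, at chr16:56608334-56608583 (MT2A), chr16:56682220-56682469 (MT1X) and chr16:56669564-56669813 (MT1H).
MT2A: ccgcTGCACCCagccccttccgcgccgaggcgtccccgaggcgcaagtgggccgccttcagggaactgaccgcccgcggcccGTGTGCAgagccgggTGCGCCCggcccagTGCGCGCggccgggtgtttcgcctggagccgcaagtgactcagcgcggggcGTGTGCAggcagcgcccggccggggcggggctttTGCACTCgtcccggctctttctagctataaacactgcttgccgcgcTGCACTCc
MT1X: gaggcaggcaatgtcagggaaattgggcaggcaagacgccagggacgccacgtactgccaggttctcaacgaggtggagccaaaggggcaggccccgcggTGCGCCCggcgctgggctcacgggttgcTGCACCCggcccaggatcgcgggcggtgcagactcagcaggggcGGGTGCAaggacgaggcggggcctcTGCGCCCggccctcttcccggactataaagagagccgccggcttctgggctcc
MT1H: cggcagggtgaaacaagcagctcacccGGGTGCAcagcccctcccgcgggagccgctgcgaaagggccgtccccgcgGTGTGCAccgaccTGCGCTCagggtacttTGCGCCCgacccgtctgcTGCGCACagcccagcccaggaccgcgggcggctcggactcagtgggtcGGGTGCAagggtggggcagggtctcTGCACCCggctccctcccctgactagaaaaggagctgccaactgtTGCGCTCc

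MT2A held 7 matches, 5 on the strand of the gene and 2 on the other. MT1X held 4, with 3 on its own strand. MT1H held 8, with 5 on its own strand. The MTF1 promoter held 0. Of 35116 RefSeq promoters of this length, 24.8% held at least 1 match, 0.37% at least 4, 0.0313% at least 7 and 0.0171% at least 8. Both MT1X and MT1H had a match whose first base lay 53 bases before the start, and that of MT2A lay 54 bases before it. A match is a run of letters and was not tested for binding.

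**Figure D1:**
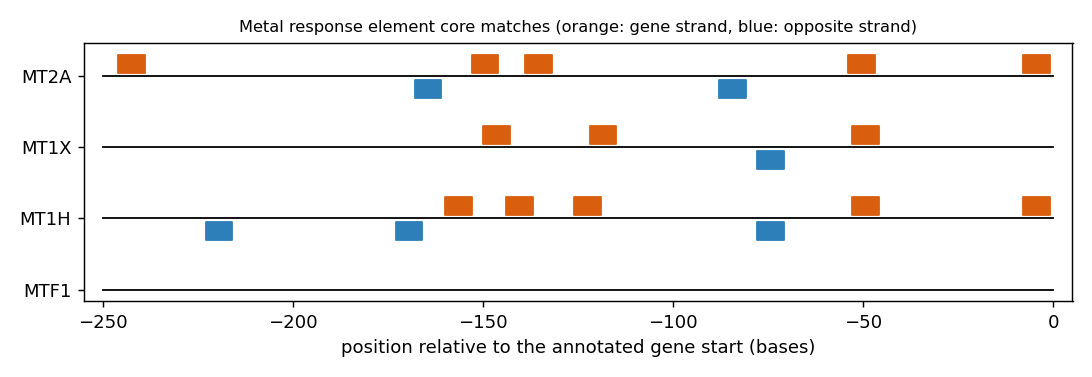
Matches to the metal response element core in the 250 bases before the annotated start of MT2A, MT1X, MT1H and MTF1. The horizontal axis is the position in bases relative to the start, orange boxes are matches on the strand of the gene and blue boxes those on the opposite strand. MT2A has 7 boxes, MT1X 4, MT1H 8 and MTF1 0.

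The arrays had been scaled to one distribution before deposit, with medians between 6.458 and 6.470 on all 6. Across the 24402 tested probes, arrays of the 2 lines at one time point correlated at r = 0.935 to 0.953, the 0 h array of a line with its later arrays at 0.870 to 0.903, and the 8 and 24 h arrays at 0.933 and 0.937 (Pearson's r over probes, which do not stand for replicates). The 0 h arrays thus stood furthest from the rest in both lines, and every change after 0 h below is measured against them. Of 6 squamous markers with a probe, 5 were above the background limit of 13.75 on all arrays (summed intensity 4307.2 to 18033), against 1 of 5 fibroblast markers (34.0 to 112.8), 1 of 4 immune markers (45.3 to 82.5) and 1 of 4 endothelial markers (29.8 to 228.3). Between the lines KRT14 (log2 difference 3.43) and DSG3 (1.13) were higher in KY170R and KRT13 (-3.18) and KRT5 (-1.74) lower, all squamous markers that passed the test described below, and their part in the member values was not tested. The limit is the size of the 1st percentile of all values below 0. In these bulk samples fewer cells of a kind and less RNA per cell cannot be told apart.

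MT2A was the brightest member on every array and had a different course in each line. In KY170 its intensity at 0, 8 and 24 h was 8056.1, 36699.6 and 19855.8, and in KY170R it was 31140.4, 30334.4 and 11851.7. In KY170 it was lowest at 0 h and highest at 8 h, whereas in KY170R it was high at 0 and 8 h and lowest at 24 h. The 8 h level was 4.56-fold the 0 h level in KY170 and 0.97-fold in KY170R, and the 24 h level was 2.46-fold and 0.38-fold. By rank among all probes of its array it moved from 552 to 10 and then 161 in KY170, and from 47 to 58 and then 326 in KY170R. The highest value on any array was 46827. The MT2A probe thus worked nearer the top of the range on the 8 h array of KY170 and the 0 and 8 h arrays of KY170R. The response of the scanner there was not tested.

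MT1X and the brighter of the 2 MT1E probes (ILMN_2173611) encode further ubiquitous metallothioneins and followed MT2A in both lines. MT1X gave 6502.6, 32093.2 and 12499 (KY170) and 10195, 12423.4 and 3783.3 (KY170R). MT1E gave 2629.5, 13105 and 6753.2 (KY170) and 6890.4, 5800.7 and 1570.4 (KY170R). Both were highest at 8 h in KY170 and lowest at 24 h in KY170R among the 6 arrays. The 8 h level was 4.94-fold (MT1X) and 4.98-fold (MT1E) the 0 h level in KY170, against 1.22-fold and 0.84-fold in KY170R. At 24 h both lay above their 0 h level in KY170 (1.92-fold for MT1X and 2.57-fold for MT1E) and below it in KY170R (0.37-fold and 0.23-fold).

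**Figure D2:**
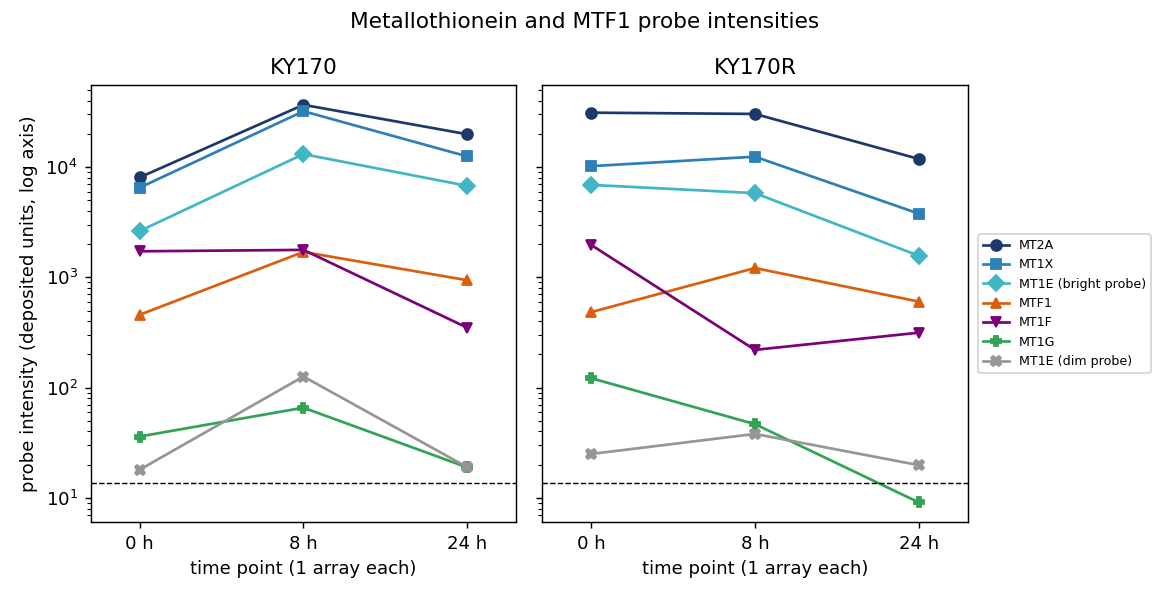
Intensity of the 7 tested probes on a log axis against time point, with KY170 on the left and KY170R on the right. Each point is 1 array and the dashed line is the background limit of 13.75. MT2A, MT1X and the bright MT1E probe peak at 8 h in KY170 (36699.6, 32093.2 and 13105) and reach their lowest KY170R level at 24 h (11851.7, 3783.3 and 1570.4).

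The other metallothionein probes were dimmer and did not share one course. MT1F gave 1722.3, 1773.4 and 349.5 (KY170) and 1965.4, 219.8 and 314.8 (KY170R). It was thus similar in both lines at 0 h, as high at 8 h in KY170 only, and low in both at 24 h, 4.93-fold under 0 h in KY170 and 6.24-fold in KY170R. MT1G gave 36.0, 65.7 and 18.9 (KY170) and 121.7, 46.6 and 9.1 (KY170R), the last below the background limit. The dim MT1E probe (ILMN_1718968) gave 18.0, 126 and 19.0 (KY170) and 25, 38.0 and 19.8 (KY170R), so that its 8 h array of KY170 stood alone. The MT1H probes read -3.0 to 22.8 (ILMN_2124802) and -1.5 to 6.0 (ILMN_1683923), and the first passed the limit on 2 of the 6 arrays, KY170 at 8 h (22.8) and KY170R at 0 h (16.1). MT1M read -8.1 to 0.5 and was at background on all 6 arrays. These genes are closely related in sequence, the probe sequences were not used here, and how far the MT1 probes read each other's RNA was not tested.

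MTF1, the activator, had the same order of levels in both lines. Its intensity was 457.5, 1699.9 and 941.3 (KY170) and 483.7, 1214.6 and 602.6 (KY170R), lowest at 0 h and highest at 8 h in each. The 8 h level was 3.72-fold the 0 h level in KY170 and 2.51-fold in KY170R, and the 24 h level 2.06-fold and 1.25-fold.

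The first comparison asked how the resistant line differed from its parent. KY170R was brighter for MT2A at 0 h, with a log2 difference of 1.95 (3.87-fold), and dimmer later, at -0.27 at 8 h and -0.74 at 24 h. The bright MT1E probe differed by 1.39, -1.18 and -2.10, and MT1X by 0.65, -1.37 and -1.72. MT1G followed the same order, at 1.76, -0.50 and -1.05. MT1F was 8.07-fold lower in KY170R at 8 h (log2 difference -3.01) and close to KY170 at 0 h (0.19) and 24 h (-0.15), and MTF1 differed by 0.08, -0.49 and -0.64. The sign thus turned from above 0 at 0 h to below 0 at both later times for these 6 probes. It turned by little for MTF1 and, at 0 and 24 h, for MT1F. The dim MT1E probe differed by 0.475, -1.73 and 0.06, so that it was not below 0 at 24 h. A mean over the time points does not show these turns.

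Over the 3 time points together no member passed between the lines. For MT2A the log2 difference averaged 0.31 ± 1.44 (SD, n = 3 time points). It averaged -0.63 ± 1.81 for the bright MT1E probe and -0.82 ± 1.28 for MT1X. The 95% intervals were -2.07 to 2.69, -3.54 to 2.28 and -2.48 to 0.85 in that order. They come from the SE of the limma fit below and not from these SDs. The test was limma with a trended prior variance, and 0 of the 7 tested member probes passed (adjusted p from 0.51 to 0.98). Of all tested probes 1.82% passed. At an unadjusted p under 0.05 stood 0 of the 7, beside 3308 of all 24402 tested probes. With one prior variance or by the methods' t-test 0 of the 7 were called. Of the 6 metallothionein probes the median log2 difference was -0.52, beside 0.00 over all tested probes. The time points decided this result. Without the 0 h arrays the bright MT1E probe (-1.64, adjusted p = 0.0042) and MT1X (-1.55, adjusted p = 5.2e-04) were lower in KY170R, on 1 residual degree of freedom. That fit called 362 of all 24402 tested probes, and in it the dim MT1E probe did not pass (-0.84, adjusted p = 0.527). The fit without the 24 h arrays also passed 2 members (MT2A and MT1F), but its prior degrees of freedom were infinite, so that it left out the probe's own spread. The values it averaged were 1.95 and -0.27 for MT2A and 0.19 and -3.01 for MT1F, and no direction is read from it.

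**Figure D3:**
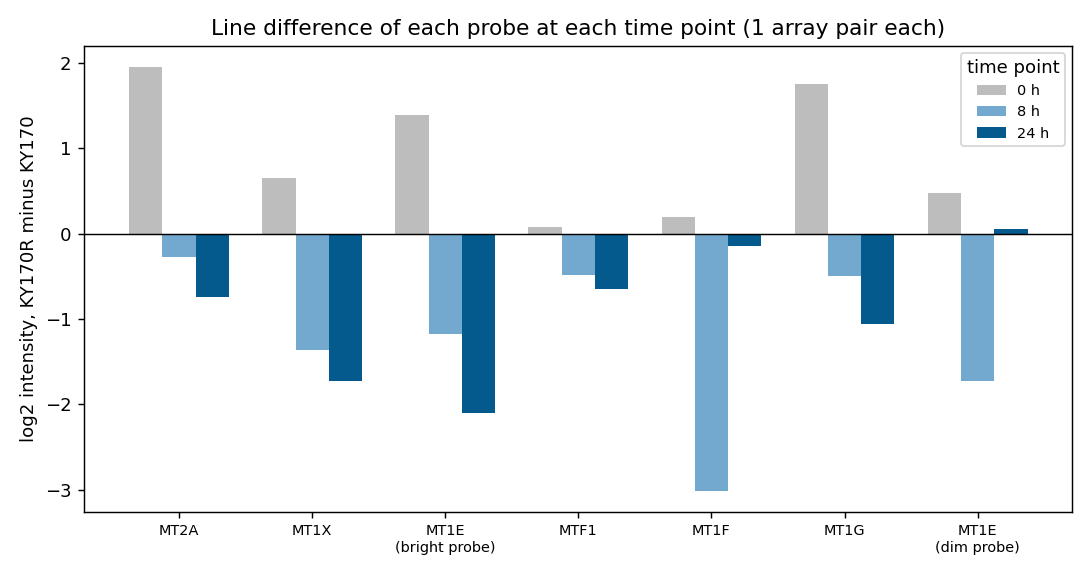
Log2 intensity of KY170R minus KY170 for the 7 tested probes at 0, 8 and 24 h, each bar being 1 pair of arrays. MT2A, MT1X, the bright MT1E probe and MT1G stand above 0 at 0 h (1.95, 0.65, 1.39 and 1.76) and below 0 at 8 and 24 h.

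The second comparison asked which members changed from 0 h on average over both lines. At 8 h MTF1 rose 3.05-fold (log2 change 1.61, SE 0.24, adjusted p = 9.0e-04) and the dim MT1E probe rose 3.26-fold (1.70, SE 0.57, adjusted p = 0.0457), by limma with the trended prior, so that 2 of 7 member probes passed where 29.1% of all tested probes did. MT1X (1.29, SE 0.69, adjusted p = 0.296), MT2A (1.08, SE 0.87, 0.505) and the bright MT1E probe (1.03, SE 1.08, 0.609) did not pass. Their total degrees of freedom were fewer, 2.76 to 3.48 against 10.67 for the 2 that passed. The median log2 change of the 6 metallothionein probes was 1.05, beside 0.03 over all tested probes. With one prior variance for all probes none of the 7 passed (MTF1 adjusted p = 0.067, with 0 calls among all probes), and without the 24 h arrays 6 of 7 passed in the same fit with infinite prior degrees of freedom, from which nothing is read.

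At 24 h MT1G fell by 2.33 on the log2 scale (SE 0.62, adjusted p = 0.0132) and MTF1 was still higher, by 0.68 (SE 0.24, adjusted p = 0.04997). These 2 of 7 passed where 36.5% of all tested probes did. MT1F was lower by a log2 change of -2.47 without passing (SE 0.87, adjusted p = 0.101). The changes of MT2A (-0.05), MT1X (-0.24) and the bright MT1E probe (-0.39) were near 0, the changes of the 2 lines being of opposite sign on their own arrays. Without the 8 h arrays MTF1 no longer passed (adjusted p = 0.106) and MT1F did (adjusted p = 3.2e-05). That fit had 1 residual and a median of 16.62 prior degrees of freedom and called 8012 of all 24402 tested probes. It left out the arrays on which MT1F was 8.07-fold lower in KY170R. With values raised to at least the background limit of 13.75, MT1G changed by -2.04 (adjusted p = 0.202).

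The last comparison asked whether the change after 0 h itself differed between the lines. The estimate was below 0 for all 7 tested member probes, that is, lower after 0 h in KY170R relative to KY170. The difference (change in KY170R minus change in KY170, 0 h against the mean of both later times) was -3.03 (SE 1.09, 95% interval -5.65 to -0.41) for the bright MT1E probe, -2.46 (SE 0.83, -4.46 to -0.46) for MT2A, -2.53 (SE 1.62) for MT1G, -2.20 (SE 1.11) for MT1X, -1.77 (SE 1.28) for MT1F, -1.31 (SE 1.60) for the dim MT1E probe and -0.65 (SE 0.83) for MTF1. The median over the 6 metallothionein probes was -2.33, beside -0.04 over all tested probes. The spread in this fit was that between the 8 and 24 h arrays within each line, so a change between those times counted as noise. In trended limma 0 of 7 passed (adjusted p = 0.999), as did 0% of all tested probes. MT2A and the bright MT1E probe were among the probes at an unadjusted p under 0.05, which were 601 of all 24402 tested. A fit that gives 8 and 24 h their own levels, chosen after the data were seen, left 1 residual degree of freedom and called 2 probes of all tested, neither of them a member. In it the adjusted p was 0.0598 for MT2A, 0.0704 for MT1X and 0.0708 for the bright MT1E probe.

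How unusual the courses were was set against all 14592 probes above the background limit on all 6 arrays, which held 6 member probes (both MT1E, MT1F, MT1X, MT2A and MTF1). The rules were set after the values were seen, and the shares describe these arrays without a test. KY170R was at least 2-fold above KY170 at 0 h for 2 of the 6 (MT2A and the bright MT1E probe) and for 4.66% of all. It was at least 2-fold below KY170 at 24 h for 2 (the bright MT1E probe and MT1X) and for 3.78% of all. From 0 to 8 h in KY170, 5 of the 6 were at least 2-fold higher, beside 15.3% of all, and from 0 to 24 h in KY170R 4 were at least 2-fold lower, beside 23.1% of all. Both held for MT2A, MT1X and the bright MT1E probe, 3 of the 6, and for 0.555% of all. They did not both hold for the dim MT1E probe. The MT1 probes may read each other's RNA, which was not tested. KY170R was higher at 0 h and lower at 8 and 24 h for 5 of the 6 and for 12.2% of all.

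**Figure D4:**
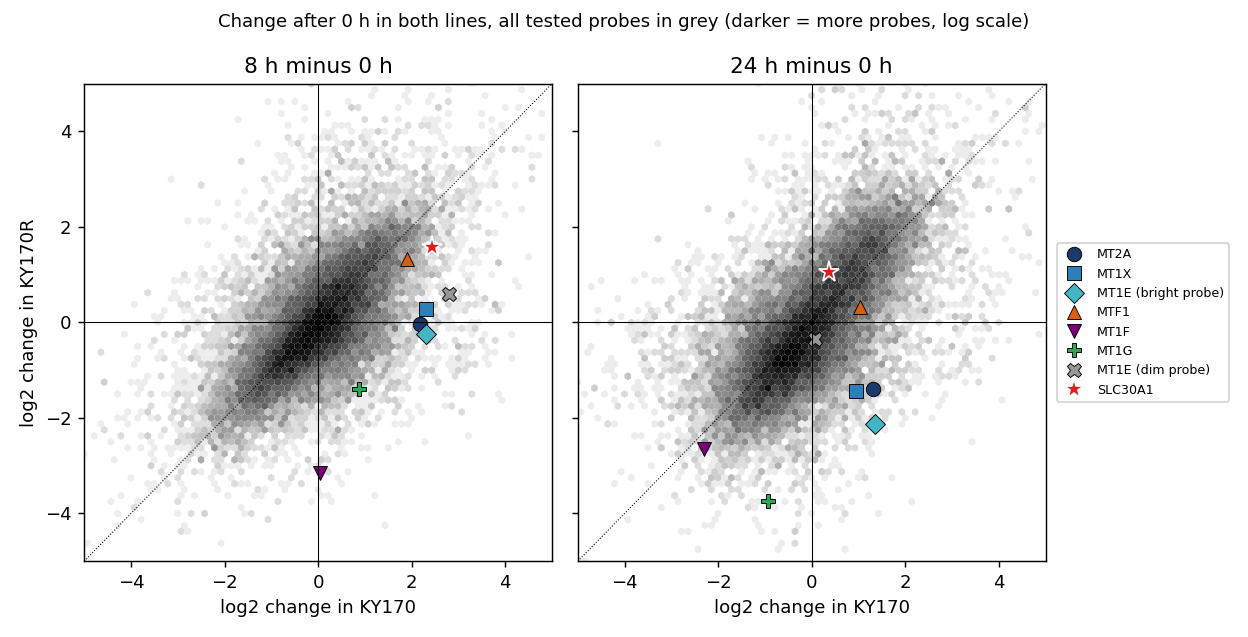
Log2 change from 0 h in KY170 (horizontal) and in KY170R (vertical) at 8 h and 24 h, each coloured symbol being 1 probe and grey cells all 24402 tested probes, darker where more probes lie. MT2A, MT1X and the bright MT1E probe lie below the dotted line of equal change, near 2.19 to 2.32 against -0.25 to 0.29 at 8 h, while MTF1 (1.89 and 1.33) and the zinc exporter gene SLC30A1 (2.43 and 1.58) were higher in both lines.

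Likeness between members was measured as Pearson r of log2 intensity over the 6 arrays, as a description with no test, since the arrays share lines and time points. The bright MT1E probe and MT1X were the closest pair (r = 0.964), and only 6 of the 9346 named genes above the limit on all arrays were more like that MT1E probe. MT2A was less close to the bright MT1E probe (0.857, with 115 genes more like MT2A) and to MT1X (0.783, with 285 genes). MTF1 stood at 0.660 to MT2A, 0.792 to MT1X and 0.673 to the bright MT1E probe, and MT1F at 0.046 to MT2A. The 2 MT1E probes correlated at 0.716. The 5 other genes closest to MT2A were LOC105369911 (0.989), PRRC2A (0.981), HMGN2 (0.980), TLCD2 (0.978) and PYHIN1 (0.9745). The brightest of these, PRRC2A, spanned only 1272.4 to 1849.5 in intensity.

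Genes that flank the cluster on chromosome 16 were set beside the members, with no test of the difference. The nearest protein-coding genes with a tested probe before it were BBS2, OGFOD1 and NUDT21, and NUP93, CETP and NLRC5 lay after it. Their choice was made after the member values were seen. OGFOD1 differed between the lines by -0.14, -0.03 and -0.06 (log2, 0, 8 and 24 h) and NUP93, a nuclear pore gene, by -0.21, -0.16 and -0.27, both bright on all arrays. BBS2, a ciliary gene, differed by -0.42, -0.14 and 0.39, and NUDT21, a polyadenylation factor, by -0.63, 0.17 and -0.55. Near the limit, CETP read 8.9 to 33.2 and differed by 0.52, -1.42 and -0.60, and NLRC5 read 9.6 to 39.5 and differed by 1.89, -0.53 and 0.35.

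Metallothioneins share zinc with its transporters. SLC30 proteins export zinc from the cytosol, and SLC30A1, at the cell surface, is a known target of MTF1. SLC30A1 gave 307.1, 1654.2 and 399.4 (KY170) and 227.8, 681.4 and 471.7 (KY170R). As for MT2A, MT1X and both MT1E probes, its highest value was on the 8 h array of KY170, 5.39-fold above 0 h, and in KY170R it was 2.99-fold above 0 h (4.01-fold over both lines, SE 0.33 on the log2 scale, adjusted p = 0.0013, trended limma). Of 8 tested exporters 3 rose at 8 h and 0 fell, with a median log2 change of 0.98. Of all tested probes 15.2% rose and 13.9% fell at 8 h (median 0.03), and 19.2% rose and 17.4% fell at 24 h (median -0.12), and the counts of this and the following lists stand beside these shares, with nothing particular to a list read from them. The others that rose were SLC30A7 (1.83) and SLC30A6 (1.505), exporters of the secretory pathway. At 24 h 3 rose (SLC30A7 by 1.66, SLC30A6 by 1.49 and SLC30A9 by 1.18) and SLC30A5 fell by 0.59 by its brightest probe. A dimmer SLC30A5 probe, above the limit on all arrays, went the other way, from 349.2 to 1104.6 in KY170 and from 283.7 to 706.3 in KY170R between 0 and 24 h, so the probes of this gene disagreed. One SLC30A2 probe, picked out after its values were seen, read 147.1 on the 8 h array of KY170 and at most 15.1 on the other 5, and did not pass, while the other probe of the gene read -0.5 on that array and at most 4.2 on any.

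Importers of the SLC39 family, which bring zinc into the cytosol, moved in both directions. Of 11 tested, 3 rose and 1 fell at 8 h (median log2 change -0.26) and 4 rose and 4 fell at 24 h (median -0.52). SLC39A6 rose by 1.72 and 2.03 at 8 and 24 h, and SLC39A9 (1.79) and SLC39A14 (1.27) rose at 8 h, where SLC39A11 fell by 0.89. At 24 h SLC39A8, which also carries cadmium, rose by 1.54, while SLC39A4, the zinc carrier of the intestine, fell by 1.97. SLC39A7 fell by 1.98 by its brightest probe, which rested on 1 value under the limit (46.1 to 4.7 in KY170, against 48.8 to 30.9 in KY170R), and its other tested probe went from 22.9 to 14.1 and from 23.2 to 30.9. The dimmer SLC39A6 probe was also mixed at 8 h, going from 29.6 to 23.7 in KY170 and from 7.6 to 37.6 in KY170R. SLC39A4 gave 2195, 1572.4 and 837.7 (KY170) and 1922.4, 1122.5 and 329.4 (KY170R), so the fall was seen in each line. No exporter or importer passed between the lines.

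**Figure D5:**
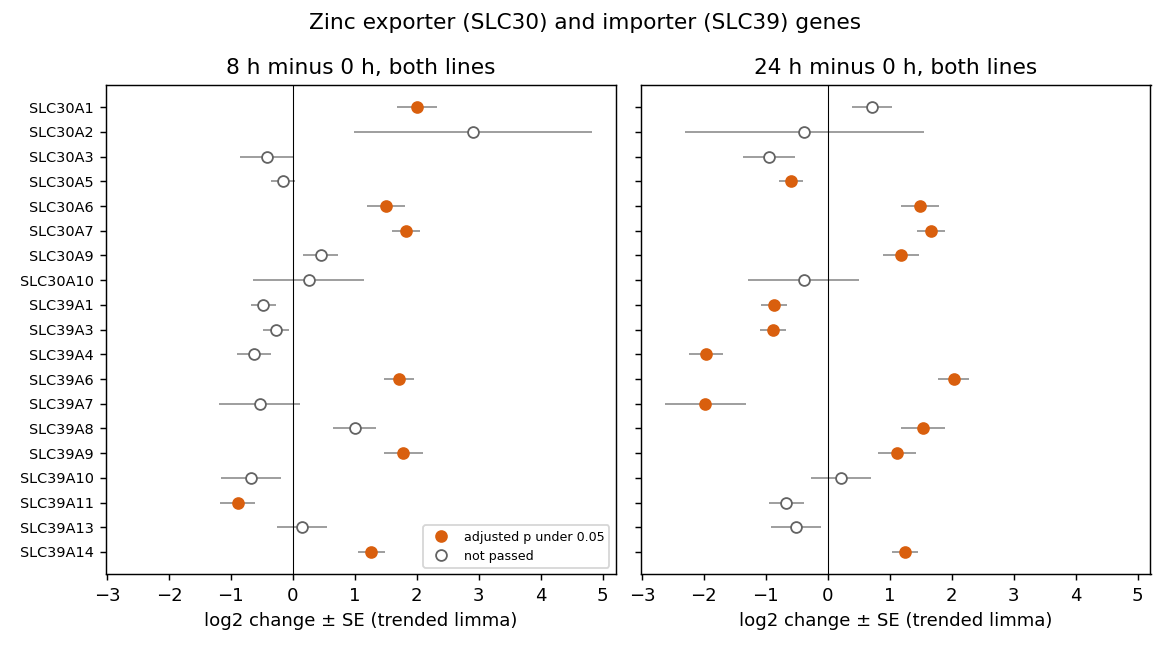
Log2 change from 0 h with its SE (trended limma, both lines) for 8 SLC30 and 11 SLC39 genes at 8 h and 24 h, filled where the adjusted p was under 0.05. SLC30A1 is filled at 8 h (2.005) and open at 24 h (0.71), and SLC39A6 is filled at both (1.72 and 2.03).

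Other known or proposed targets of MTF1, most of them described in mouse, moved in both directions. Of 8 tested, 1 rose at 8 h (SLC30A1) and 3 fell, and at 24 h 1 rose and 3 fell. SELENOW, a selenoprotein gene, gave 2699.6, 1091.9 and 745.3 (KY170) and 2995.5, 1029.2 and 752.1 (KY170R), lower at both later times in each line (log2 change -1.42 at 8 h and -1.93 at 24 h). PGF, a growth factor gene, read 103.4 and 174.5 at 0 h in KY170 and KY170R and at most 3.1 at 8 h. NDRG1, a gene of the hypoxia response, fell by 1.96 at 8 h. At 24 h GCLC, which encodes the catalytic subunit of an enzyme of glutathione synthesis, rose by 1.34 and SELENOH fell by 1.98. The median log2 change was -0.79 at 8 h and -0.27 at 24 h, and 0 of 8 passed between the lines.

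Other genes that answer heavy metals and heat moved in both directions. HMOX1, a heme oxygenase gene strongly raised by cadmium, gave 116.9, 15.4 and 16.6 (KY170) and 108.2, 12.6 and 165.2 (KY170R), and fell by 3.01 at 8 h (log2, adjusted p = 0.031). BAG3 and HSPB1, which encode stress chaperone partners, fell by 1.12 and 0.89, while the chaperone gene HSPH1 rose by 1.78, so that of 8 tested 1 rose and 3 fell at 8 h. At 24 h HSPH1 (1.84) and DNAJB1 (0.75) rose and HSPB1 fell by 0.65.

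Glucocorticoid-induced genes were examined because glucocorticoids also raise MT2A. At 8 h TSC22D3 fell by 2.26 and KLF9 by 1.88, and SGK1 rose by 0.93, of 8 tested. The brightest TSC22D3 probe gave 323.9, 40.9 and 307.8 (KY170) and 248.5, 86.2 and 401.3 (KY170R), lowest at 8 h in each line. At 24 h KLF9 (1.09) and SGK1 (0.82) rose and 0 fell. The difference in change after 0 h between the lines was above 0 for all 8 (median 1.23, beside -0.04 over all tested probes), and none passed. It was also above 0 for 7 of 8 heavy metal and heat genes (median 0.68) and 4 of 8 MTF1 targets (0.65). For copper handling genes it was above 0 for 4 of 11 (median -0.14). Whether glucocorticoids bear on the member values was not tested.

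Among 9 other transcription factors and coactivators, some of which are known to act with MTF1, 5 rose and 1 fell at 8 h, and 4 rose and 2 fell at 24 h. EP300, a histone acetyltransferase that MTF1 recruits, gave 289, 927.7 and 494.6 (KY170) and 324.3, 776.6 and 366.4 (KY170R), highest at 8 h in both lines like MTF1, and rose by 1.47 at 8 h. NR3C1, the glucocorticoid receptor gene, rose by 2.38 and 3.28 from 24.8 and 2.4 at 0 h, near or under the limit. Its 2 dimmer tested probes did not share that course. From 0 to 8 h one went from 34.9 to 15.6 in KY170 and from 33.0 to 10.7 in KY170R. The other fell from 21.0 to 14.8 in KY170 and rose from 14.4 to 23.0 in KY170R. At 24 h that probe read 4.7 in KY170 and 11.6 in KY170R. PIAS1 rose by 1.44 and 2.26, HIF1A, the hypoxia factor, by 2.19 at 24 h, and NFE2L2, which encodes NRF2, by 1.57 at 24 h. USF1, whose protein binds E-boxes in metallothionein promoters, fell by 1.82 at 8 h.

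Of 11 tested copper handling genes, 2 rose and 3 fell at 8 h and 2 rose and 5 fell at 24 h. SLC31A1, the copper importer gene, rose by 0.95 at 8 h and SCO1 by 0.57, while the ferrireductase gene STEAP3 fell by 0.88 and CCS, the copper chaperone of superoxide dismutase, by 0.77. At 24 h SCO2, which delivers copper to cytochrome oxidase, fell by 1.91, COMMD1 by 1.23, CCS by 1.19 and COX17 by 0.77. SCO2 was the 1 gene of these lists, cell markers aside, that passed between the lines. It gave 3914.9, 3406.3 and 1454 (KY170) and 3032.2, 1441.8 and 575.2 (KY170R), lower in KY170R at each time (log2 difference -0.98, SE 0.20, adjusted p = 0.038). The other metallothionein genes on the array, MT1B, MT1L, MT3 and MT4, read at most 22.8 on any array, and 1 of them was bright enough to be tested (MT1B, not passed).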

How the data were processed

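Values of 6 arrays (1 for each line and time point) were used as the authors deposited them: linear probe intensities from Illumina BeadStudio, background-subtracted (29.9 to 29.93% of values below 0) and normalized between arrays by a method that the sources used here leave unnamed. The study's methods speak of triplicate profiling, and whether a column pools repeats is not given. Values were raised to a floor of 1 and turned into log2, and the upper 50% of probes by mean level were tested (24402 of 48803). A single symbol was annotated to 27578 probes, while 13 had several and 21212 had none. Of the first, 27541 had an identifier in the RefSeq table of GRCh38.p14, used for current names, gene order and promoters. No value column was left out.

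The test was limma 3.58.1 (R 4.3.3; lmFit, eBayes with trended and robust prior, two-sided, Benjamini-Hochberg over all tested probes, called under 0.05). Line and time point were the terms for the line and time comparisons, and line, later time and their product for the difference in course. Each fit had 2 residual degrees of freedom and a median of 8.67 or 4.55 prior ones. In the line and time fit the total was 2.76 for MT2A, 2.82 for the bright MT1E probe, 3.48 for MT1X and 4.24 for MT1F. It was 10.67 for MTF1, MT1G and the dim MT1E probe. Passing was thus harder for the former at the same ratio of change to SE. A level has no replicate, so the spread is that of the line difference over time points, and a p-value reflects nothing beyond how these arrays vary. The number of arrays limits the precision. The fits were tested on simulated data. The members, gene lists, tests and rules for named genes were chosen with earlier results of these data known: every member probe is named, list genes only if called (at most 4 per list and comparison, by size), and list genes stand by their brightest tested probe. The score that the methods name for calling genes was not computed. Alternatives were other floors, filters, normalizations, priors and models, the methods' t-test and each time point left out.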

Additional observations from a re-analysis of the deposited data

Results flagged for a closer look

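For the member probes above the background limit on at least 5 arrays, changes after 0 h that had opposite signs in the lines were singled out, each being a difference between single arrays. The change in KY170R minus that in KY170 at 8 h was -2.57 (log2) for the bright MT1E probe (2.32 in KY170 and -0.25 in KY170R), -2.23 for MT2A (2.19 and -0.04), -3.20 for MT1F (0.04 and -3.16) and -2.26 for MT1G (0.87 and -1.39). At 24 h it was -3.49 for the bright MT1E probe (1.36 and -2.13), -2.70 for MT2A (1.30 and -1.39), -2.37 for MT1X (0.94 and -1.43) and -0.42 for the dim MT1E probe (0.08 and -0.34). At a single time point these differences were not tested, and over both later times none passed. Of the 8 values, those of the dim MT1E probe at 24 h and of MT1F and MT2A at 8 h rest on 1 line whose own change was under 0.1. The groups of 1 array leave no check for outlying arrays.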

How the results depend on the processing

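Of the 7 tested member probes, 0 passed between the lines in every setting except 2 of those that leave out a time point (0 to 2 probes). At 8 h the count of 2 became 0 with one prior variance, 0 with the floor at the background limit, 0 without a filter, 1 with the floor at 10, 1 without the line term and 6 without the 24 h arrays. At 24 h the count of 2 became 0 with one prior variance, 0 with the floor at the background limit, 0 without a filter, and 1 with quantile normalization, with median centring and without the line term, and it was 2 without the 8 h arrays. The difference in course gave 0 in every setting run, and leaving out the 8 or 24 h arrays could not be fitted there. At 24 h the 2 probes were MT1F and MT1G, not MT1G and MTF1, without the 8 h arrays and with the floor at 10. The log2 values of the members that passed at 8 or 24 h kept their sign in every setting run, whereas the line difference of MT2A was 0.31, 0.84 without the 24 h arrays and -0.51 without the 0 h arrays. The fits without the 24 h arrays had infinite prior degrees of freedom and left out each probe's own spread. The causes were not tested. Over all tested probes, the 444 calls between the lines became 1 with one prior variance, 0 with the floor at the limit and 83 with the floor at 10. They became 0 without a filter, 15 without the time term and 5 by the methods' t-test. Without the 0, 8 or 24 h arrays they became 362, 257 and 1284. The 7106 calls at 8 h became 0, 2599 and 348 (one prior variance, floor at the limit, no filter), and the 8915 at 24 h became 0, 3951 and 525. The 0 calls of the difference in course became 669 with the floor at the limit and 2052 without a filter. Near background the signal sets the limit: MT1M and 1 MT1H probe were at background on all arrays, the other MT1H probe passed the limit on 2, and the MT1G and dim MT1E probes worked within 10-fold of the limit.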
